A study of Caenorhabditis elegans with 21 samples.

Results

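The fip (fungus-induced protein) and fipr (fip-related) genes of Caenorhabditis elegans were followed through 6 proteotoxic or nutritional stresses. Their members were taken by name: every WormBase ID of the table whose symbol is fip or fipr followed by a number, which gave 36 genes (7 fip and 29 fipr) among 46254 IDs. The 21 mRNA libraries, 3 a group in 7 groups, were all made from whole wild type worms (strain N2), synchronized, kept at 20 °C on Escherichia coli OP50 and harvested on day 1 of adulthood. The starved group spent the last 15 h on plates without food. From the L4 larval stage to the next day, 4 groups were kept on plates with 200 µM fluphenazine, 200 µM cantharidin, 10 µM bortezomib or 25 µM bortezomib, and 1 group was fed rpn-6 RNAi from the L3 stage. The untreated control is the same for all 6 treatments, so the comparisons with it share their libraries. The labels name no solvent control for the drugs and no empty-vector control for the RNAi, and they do not say whether the 3 libraries of a group came from separate cultures, so a p-value measures the spread between libraries, which may be technical.

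Fluphenazine is an antipsychotic phenothiazine that blocks dopamine receptors, cantharidin inhibits the protein phosphatases PP1 and PP2A, bortezomib inhibits the proteasome, and RPN-6 is a lid subunit of the proteasome's regulatory particle. The fip genes owe their name to induction by Drechmeria coniospora, a fungus whose spores stick to the cuticle and whose hyphae grow through the epidermis. They encode short peptides, many with a predicted secretion signal, and are counted with the cnc (caenacin) and nlp (neuropeptide-like protein) genes among the candidate antimicrobial peptides of the worm. The best studied epidermal response runs from TIR-1 (a SARM adaptor) through the p38 MAP kinase cascade of NSY-1, SEK-1 and PMK-1 to the transcription factor STA-2, and a TGF-beta branch through DBL-1 and SMAD proteins acts on cnc-2. For most single fip and fipr genes no function of their own is known, so the members are ordered here by the cluster in which they lie rather than by role.

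The values are FPKM, the fragments per kilobase of transcript, scaled to the mapped fragments of a library, that the authors deposited. They are scaled by length, but levels of different genes compare less surely in the shortest genes, where 1 fragment can move a value by several FPKM. Values of a group are given in the order of its library numbers, which are 1, 2 and 3 for starvation, 2, 4 and 9 for fluphenazine, 1, 3 and 9 for cantharidin, 4, 5 and 6 for rpn-6 RNAi, 7, 8 and 9 for 10 µM bortezomib, 3, 4 and 6 for 25 µM bortezomib and 4, 6 and 7 for control. Of the 36 members, 32 reached 1 FPKM in at least 3 libraries and entered the test. The other 4, fipr-12, fipr-14, fipr-15 and fipr-25, were listed at 0 in all 21 libraries. Among the tested members, 22 had a value above 0 in every library and 10 were listed at 0 in some. By their mean over the 21 libraries, 6 members lay at or above 100 FPKM, 8 between 50 and 100, 9 between 10 and 50, and 9 under 10. The members that passed did so partly through the groups where they are high, so counts over the 32 describe the genes that could be tested and not the whole family.

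Many members are genome neighbours. Genes of the family less than 10 kb apart formed 10 clusters that hold 27 of the 36 genes, while 9 lie alone. The clusters are fip-6 with fipr-26, fipr-22 to fipr-24, fipr-18 to fipr-20, fip-3 with fipr-16, the silent pair fipr-14 and fipr-15, fip-7 with fipr-27 and fipr-28, fipr-10 with fipr-11, fipr-4 to fipr-9, fipr-1 with fipr-2, and fip-5 with fipr-21. How the upstream software shared reads between near-identical copies of such a family is not stated in the labels, so the split of a signal between neighbours, above all within fipr-4 to fipr-9 and fipr-18 to fipr-20, is uncertain. Of the tested members, 3 overlap another gene on the opposite strand, and the labels do not say whether strand was used in counting. These are fip-4 (mean 1.90 FPKM) with smk-1 (74.7 FPKM), fipr-3 with F23D12.11 (176 FPKM) and fip-2 with T27E4.5 (0.930 FPKM), and their values cannot be separated from those partners without strand.

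**Figure D1:**
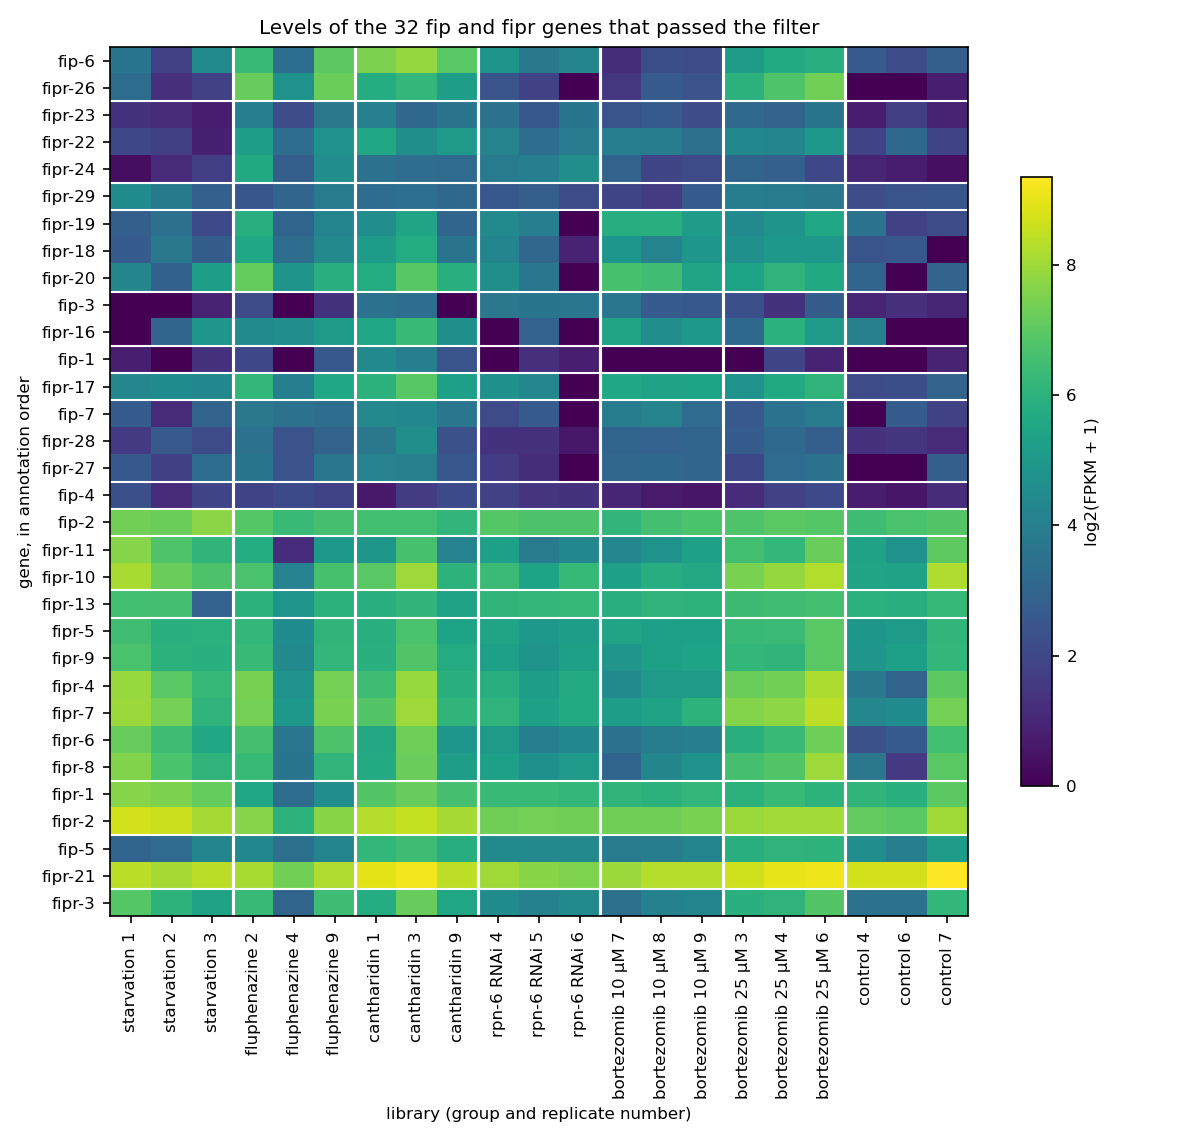
Level of each of the 32 tested fip and fipr genes (rows, in clusters) in each of the 21 libraries (columns, by group), as log2(FPKM + 1). The fipr-4 to fipr-9 cluster is bright in control 7 and dim in controls 4 and 6, and fipr-21 and fipr-2 are bright throughout.

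Some libraries differed in ways that touch these genes. Fluphenazine 4, starvation 3 and control 7, called here the 3 libraries that stand apart, were chosen with earlier results of these data known. Over all genes tested, their mean correlation with their own group was 0.891, 0.843 and 0.938, the lowest value of each of their groups, against 0.963 as the median over the 21 libraries. This correlation alone does not set them apart from all others, since starvation 1 (0.919), starvation 2 (0.899) and fluphenazine 9 (0.927) also lay below control 7. Starvation 3 also had the lowest level of 10 oocyte markers among all libraries, -4.81 log2 units from the control mean, against -2.02 and -1.39 in starvation 1 and 2, and of the sperm markers, -2.90 against 1.12 and 1.31. The summed FPKM of all 36 members was 2319, 671 and 2137 in fluphenazine libraries 2, 4 and 9, and 1045, 1004 and 2446 in control libraries 4, 6 and 7, so fluphenazine 4 lay below its 2 partners and control 7 above its own. Relative depth, read from the spacing of low values, ran from 0.953 to 1.52 of that of control 4, and the absolute depth is not known. The clusters with short transcripts hold few fragments: the lowest value of fipr-16 above 0 was 6.74 FPKM, and its highest value in any library was 12.2 times as large once depth was scaled. Among the 32 tested members, rpn-6 RNAi 6 listed 7 at 0, control 4 listed 4, control 6 listed 5 and control 7 listed 2. The RNAi target rpn-6.1 had 115, 122 and 127 FPKM in rpn-6 RNAi worms and 168, 168 and 130 FPKM in controls, and the difference did not pass the test. It was called lower than control in starvation, fluphenazine and cantharidin, at means of 118, 122 and 121 FPKM. At 10 and 25 µM bortezomib it was called higher, at means of 218 and 217 FPKM. Its level thus does not set the RNAi worms apart from 3 groups without RNAi.

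Differences below are between group means of log2(FPKM + 1), which understates the change of genes near 0, with their standard error (SE). Calls are made where limma's moderated test, with Benjamini-Hochberg adjustment over all 17492 genes tested, gave an adjusted p under 0.05. Treated libraries ran above controls in most genes: starved worms had a median difference of 0.38 over all genes tested, fluphenazine 0.34, cantharidin 0.34, rpn-6 RNAi 0.31, 10 µM bortezomib 0.16 and 25 µM bortezomib 0.40. Under median-of-ratios scaling those medians became 0.12, 0.04, 0.05, 0.02, -0.05 and 0.08. In the same order, 68.0%, 78.5%, 84.3%, 76.0%, 74.8% and 79.3% of the called genes were higher as deposited, and 50.4%, 46.3%, 50.2%, 51.7%, 38.2% and 53.2% under that scaling. With all libraries in the fit, each count of called members below therefore stands beside the percentage of all genes tested called in the same direction. Counts at an unadjusted p in limma, and counts of highest or lowest group means, have no such percentage, since it was not computed.

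The most abundant members were fipr-21 and fipr-2. The gene fipr-21, which neighbours fip-5, had 331, 272 and 329 FPKM in starved worms, 278, 164 and 300.0 with fluphenazine, 496, 583 and 337 with cantharidin, 259, 205 and 186 with rpn-6 RNAi, 246, 311 and 312 with 10 µM bortezomib, 407, 513 and 548 with 25 µM bortezomib and 412, 422 and 649 in controls. It was lower than control in starved, fluphenazine-treated and rpn-6 RNAi worms, with every library of those groups below the lowest control, and in no treatment was it called higher. The gene fipr-2 had 414, 385 and 270.0 FPKM in starved worms, 199, 65.2 and 207 with fluphenazine, 316, 369.6 and 272 with cantharidin, 159, 165 and 159 with rpn-6 RNAi, 160.5, 158 and 176 with 10 µM bortezomib, 247, 261 and 264 with 25 µM bortezomib and 136, 124 and 256 in controls. All starved and all cantharidin libraries exceeded the highest control for fipr-2, while fluphenazine 4 lay far below its 2 partners. The other 4 of the 6 most abundant members were fipr-10, fipr-7, fip-2 and fipr-4. The gene fip-2, which stands alone, had the narrowest range of the 6, with 164, 152 and 211 FPKM in starved worms, 116, 79.7 and 94.8 with fluphenazine, 89.7, 90.7 and 69.1 with cantharidin, 118, 105 and 105 with rpn-6 RNAi, 70.6, 93.8 and 103 with 10 µM bortezomib, 108, 124 and 115 with 25 µM bortezomib and 85.2, 101 and 114 in controls.

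Starvation gave a mixed picture. Of the 32 members tested, 9 were called higher and 2 lower, 21 were not called, and the members' median difference was 0.98. Over all genes tested 39.1% were called higher and 18.4% lower, so the share of members called higher was below that of the genome. The neighbours fipr-1 and fipr-2 both rose, so did the single genes fip-2, fipr-29 and fip-4 and the low gene fipr-26, and the neighbours fip-5 and fipr-21 both fell. The gene fipr-29 had 21.9, 12.8 and 6.35 FPKM in starved worms and 3.58, 4.34 and 4.68 FPKM in controls, with no overlap and a difference of 1.36 ± 0.37 (adjusted p = 0.0067). The gene fipr-1 had 197, 181 and 141 FPKM in starved worms and 69.0, 59.6 and 126 FPKM in controls, a difference of 1.08 ± 0.38 (adjusted p = 0.0241). For fipr-2 the difference was 1.1004 ± 0.34 (adjusted p = 0.0125), and for fip-2 it was 0.80 ± 0.17 (adjusted p = 0.00104). In each of these 4 genes every starved library exceeded every control, as the choice of all but fip-2 required.

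The gene fipr-21 differed by -0.64 ± 0.24 (adjusted p = 0.0349), and fip-5, with 6.97, 8.54 and 18.6 FPKM in starved worms and 23.2, 15.1 and 33.6 FPKM in controls, by -1.06 ± 0.32 (adjusted p = 0.0106), although starvation 3 lies above control 6. Calls of fipr-4, fipr-6 and fipr-8, with differences of 2.45 ± 0.87, 2.58 ± 0.97 and 2.71 ± 1.03, rest on groups that overlap, since control 7 exceeded starvation 3 in all of them. Without the 3 libraries that stand apart, 17 members were called higher and 1 lower, beside 45.4% of all genes higher and 4412 of 17492 lower. With the trend on transcript length removed 1 was called higher and 3 lower, beside 26.2% of all genes higher and 4954 of 17347 lower. That fit subtracts the median deviation of each length class in each library. It therefore also takes out library-wide shifts, its median over all genes being 0.06 in starvation, and lost calls are not put down to length alone. The count of called members fell to 3 without starvation 1, to 4 without control 4 and to 4 without control 6, and the call of fipr-1 was also lost without starvation 2, that of fipr-21 without starvation 1, starvation 2 or control 7, and that of fipr-2 without control 4 or control 6. Median-of-ratios scaling left 5 members called higher and 2 lower, beside 29.1% and 28.6% of all genes.

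Fluphenazine raised the pair fip-6 and fipr-26, the fipr-22 to fipr-24 cluster and the fip-7, fipr-27 and fipr-28 cluster, all of whose members passed the test, although the groups overlapped in fipr-27. In total 13 of 32 members were called higher, 2 lower and 17 not, with a median of 1.26. Of all genes tested 34.4% were called higher and 9.39% lower. The gene fipr-26 had 142, 27.1 and 152 FPKM with fluphenazine and 0, 0 and 0.726 FPKM in controls, a difference of 6.15 ± 0.71 (adjusted p = 5.65e-06). The control value of 0.726 FPKM is the smallest above 0 for fipr-26. Once values were scaled by relative depth, the 5 of up to 8 times its size, itself included, were whole multiples of it within 0.1. At such a low control level the size of the difference depends on the pseudocount, and it was 8.69 with 0.1 in place of 1. The gene fipr-24 had 49.5, 6.19 and 23.1 FPKM with fluphenazine and 0.949, 0.689 and 0.309 FPKM in controls, a difference of 3.66 ± 0.54 (adjusted p = 6.15e-05). Every fluphenazine library was above every control for both genes, as their choice required, and fluphenazine 4 was the lowest of its group in both.

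The gene fip-6, the neighbour of fipr-26, had 80.2, 9.33 and 126 FPKM with fluphenazine and 5.48, 3.58 and 6.16 FPKM in controls, a difference of 2.99 ± 0.75 (adjusted p = 0.00493). The gene fipr-20, among the shortest transcripts of the family, had 138, 27.3 and 56.9 FPKM with fluphenazine and 6.98, 0 and 6.85 FPKM in controls, a difference of 3.94 ± 1.03 (adjusted p = 0.00648). Its groups did not overlap, as its choice required. Of the fipr-18 to fipr-20 cluster, fipr-18 and fipr-20 passed the test and fipr-19 did not (1.84 ± 0.98, adjusted p = 0.132). The other calls in the higher direction were fipr-16, fipr-17 and fip-4. The 2 falls were in fipr-21 (-1.01 ± 0.24, adjusted p = 0.00399) and in fipr-1, which had 43.7, 8.83 and 23.0 FPKM with fluphenazine and 69.0, 59.6 and 126 FPKM in controls (-1.89 ± 0.38, adjusted p = 0.00102). Its neighbour fipr-2 was not called in fluphenazine, differing by -0.23 ± 0.34 (adjusted p = 0.597). With the length trend removed fipr-2 was called lower too (-0.78 ± 0.26, adjusted p = 0.0259). The difference between these 2 genes was not tested.

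None of the 6 genes of the fipr-4 to fipr-9 cluster was called in fluphenazine. Without control 7, fluphenazine 4 and starvation 3 all 6 were, with fipr-4 at 4.04 ± 0.54 (adjusted p = 1.41e-05) and fipr-8 at 3.59 ± 0.77 (adjusted p = 7.54e-04). In that fit 22 members were called higher and 2 lower, beside 50.5% of all genes higher and 4411 of 17492 lower. With the length trend removed 10 were called higher and 6 lower, beside 19.7% of all genes higher and 4408 of 17347 lower. There fipr-26 differed by 5.62 ± 0.63. Median-of-ratios scaling gave 12 higher and 4 lower, beside 23.2% and 26.8% of all genes.

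Cantharidin raised fip-6 with fipr-26, all of fipr-22 to fipr-24, all of the fip-7 cluster and 2 of fipr-18 to fipr-20. Of the 32 tested, 15 were called higher, 0 lower and 17 not, with a median of 1.90, and no member was lower at an unadjusted p under 0.05 in limma either. Among all genes tested 31.9% were called higher and 5.96% lower. 12 of the 32 members had their highest group mean with cantharidin, and the share of all genes that did was not computed. The gene fip-6 had 178, 231 and 122 FPKM with cantharidin and 5.48, 3.58 and 6.16 FPKM in controls, a difference of 4.85 ± 0.75 (adjusted p = 1.05e-04), and its lowest cantharidin library was far above its highest control. The gene fipr-26 had 53.6, 71.9 and 36.2 FPKM with cantharidin and 0, 0 and 0.726 FPKM in controls, a difference of 5.46 ± 0.71 (adjusted p = 2e-05). The gene fipr-20 had 52.3, 119 and 56.5 FPKM with cantharidin and 6.98, 0 and 6.85 FPKM in controls, a difference of 4.17 ± 1.03 (adjusted p = 0.00484). The 3 genes did not overlap between the groups, as their choice required.

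The fipr-22 to fipr-24 cluster rose in all 3 genes with cantharidin, by 2.78 ± 0.46, 2.47 ± 0.42 and 2.66 ± 0.54, and so did fip-7, fipr-27 and fipr-28, by 2.63 ± 0.70, 2.62 ± 0.71 and 2.26 ± 0.44. In fipr-27 the groups overlapped. The gene fip-1, a single gene near 0 elsewhere, had 20.8, 15.4 and 4.37 FPKM with cantharidin and 0, 0 and 0.844 FPKM in controls (difference 3.34 ± 0.65, adjusted p = 8.88e-04), and with all libraries in the fit cantharidin was the 1 treatment in which it was called. With those that stand apart left out, it was called with fluphenazine too. The gene fip-5 rose by 1.58 ± 0.32 (adjusted p = 0.00109), with 72.1, 85.6 and 56.0 FPKM against 23.2, 15.1 and 33.6 FPKM in controls, while its neighbour fipr-21 differed by -0.07 ± 0.24 (adjusted p = 0.852). The gene fipr-2 rose by 0.95 ± 0.34 (adjusted p = 0.0369). Cantharidin 3 had the highest value of the 3 libraries for all 6 genes of fipr-4 to fipr-9, whose groups overlapped with control 7 and of which none was called. Without the 3 libraries that stand apart, 25 members were called higher, among them all 6 of that cluster, and 0 lower. In that fit 47% of all genes were higher and 3197 of 17492 lower. With the length trend removed 12 were called higher and 2 lower, beside 16.3% of all genes higher and 3072 of 17347 lower. Median-of-ratios scaling gave 14 and 1, beside 19.5% and 19.3% of all genes.

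**Figure D2:**
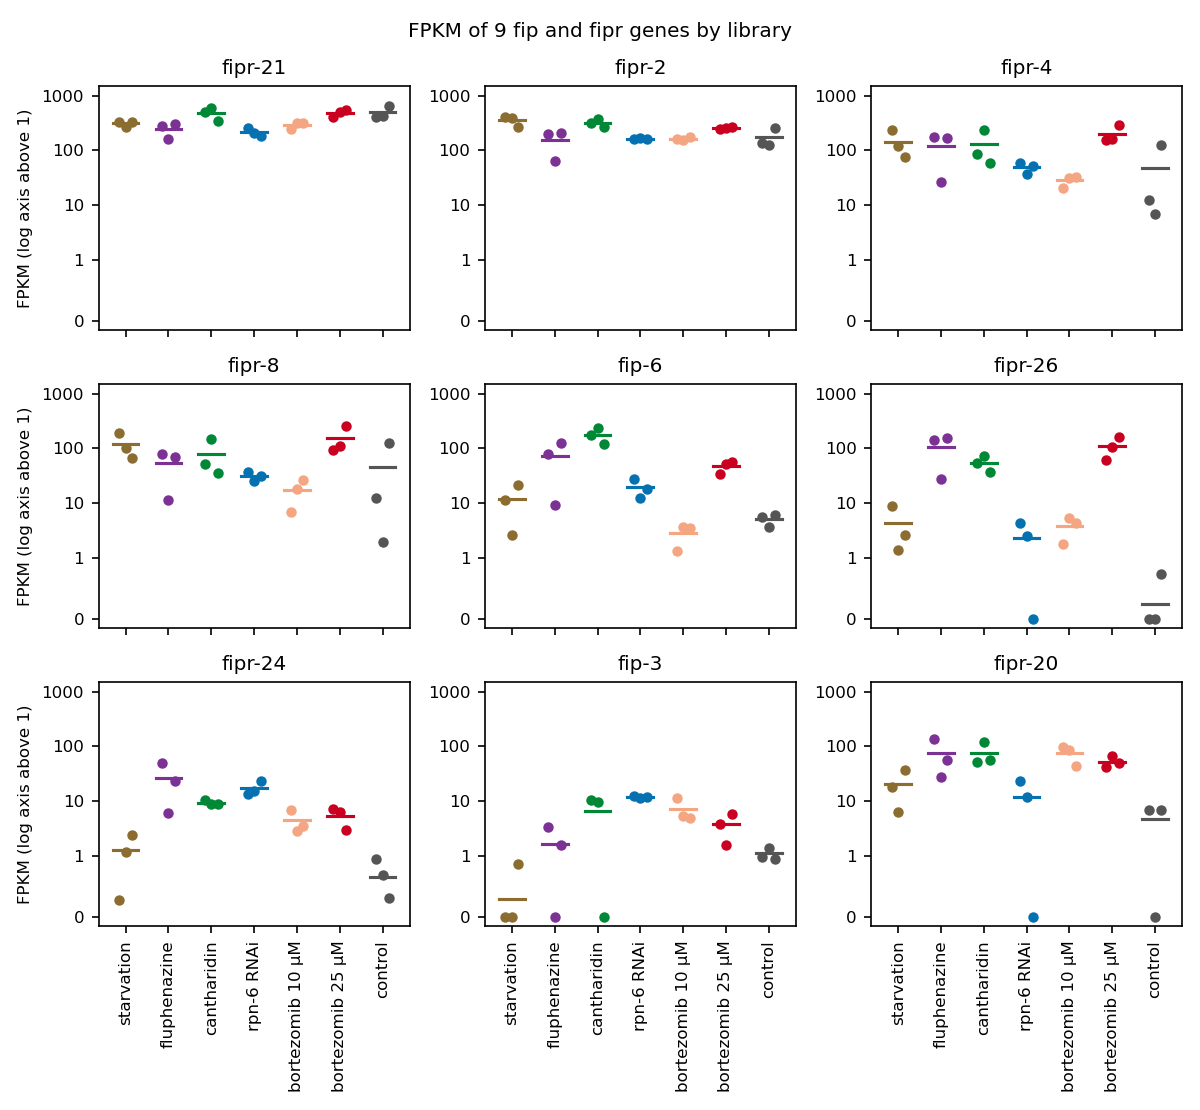
FPKM of 9 members in each library (points) with the group mean (lines), on an axis that is linear from 0 to 1 and logarithmic above, by group with the control at the right. The gene fip-6 reached 178, 231 and 122 FPKM with cantharidin, against 5.48, 3.58 and 6.16 in controls, and control 7 is the high control point of fipr-4 and fipr-8.

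RNAi of rpn-6 moved few members. Of the 32 tested, 4 were called higher, 1 lower and 27 not, with a median of 0.23, beside 27.9% of all genes called higher and 8.81% lower. The 4 that rose were the 3 genes of the fipr-22 to fipr-24 cluster and fip-3. The gene fipr-24 had 13.7, 15.2 and 23.7 FPKM with rpn-6 RNAi and 0.949, 0.689 and 0.309 FPKM in controls, a difference of 3.47 ± 0.54 (adjusted p = 6.66e-05). The gene fipr-23 had 10.4, 4.77 and 11.5 FPKM with rpn-6 RNAi and 0.678, 2.36 and 0.927 FPKM in controls (2.08 ± 0.42, adjusted p = 9.05e-04), and fipr-22 differed by 1.503 ± 0.46 (adjusted p = 0.0163). The gene fip-3 had 12.2, 11.5 and 11.8 FPKM with rpn-6 RNAi and 0.973, 1.42 and 0.955 FPKM in controls (2.61 ± 0.73, adjusted p = 0.00942). None of these 4 genes overlapped between the groups, as the choice of all but fipr-22 required. The member that fell was fipr-21, with a difference of -1.16 ± 0.24 (adjusted p = 0.00112).

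The short-transcript members differed between the 3 rpn-6 RNAi libraries. The gene fipr-20 had 23.6, 11.9 and 0 FPKM there, fipr-17 had 25.05, 18.8 and 0 FPKM and fipr-19 had 21.5, 15.1 and 0 FPKM, with the 0 of each in rpn-6 RNAi 6. None of the 3 was called. Without the 3 libraries that stand apart 10 members were called higher, among them 4 of the 6 genes of fipr-4 to fipr-9, and 1 lower. In that fit 44.4% of all genes were higher and 2310 of 17492 lower. With the length trend removed 2 were called higher and 1 lower, beside 14.9% of all genes higher and 2639 of 17347 lower. The gene fip-3 lost its call then (1.93 ± 0.73, adjusted p = 0.0582) and also with a pseudocount of 0.1.

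Bortezomib at 10 µM raised 7 members, fipr-17 to fipr-20, which are no longer than 160 nucleotides, and the longer fipr-22, fip-7 and fipr-28. Of the 32 tested, 7 were called higher, 0 lower and 25 not, and the members' median was 0.01. At an unadjusted p under 0.05 in limma 13 were higher and 1 was lower, and the share of all genes at that threshold was not computed. At the adjusted threshold 9.61% of all genes tested were called higher and 3.24% lower. The gene fipr-20 had 98.1, 87.5 and 43.2 FPKM with 10 µM bortezomib and 6.98, 0 and 6.85 FPKM in controls, a difference of 4.20 ± 1.03 (adjusted p = 0.0134). The gene fipr-19 had 55.9, 57.8 and 35.2 FPKM with 10 µM bortezomib and 10.7, 2.63 and 3.51 FPKM in controls (3.10 ± 0.98, adjusted p = 0.0479). The gene fipr-17 had 47.5, 40.3 and 42.2 FPKM with 10 µM bortezomib and 3.46, 3.79 and 6.78 FPKM in controls (3.01 ± 0.88, adjusted p = 0.0343). In these 3 genes every treated library stood above every control, as their choice required.

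Neither of the 2 most abundant members was called at 10 µM. The gene fipr-21 differed from control by -0.74 ± 0.24 (adjusted p = 0.0559) and fipr-2 by 0.01 ± 0.34 (adjusted p = 1). In this group 10 of the 32 members, among them fip-6, had their lowest group mean, and the share of all genes that did was not computed. The calls were fragile: the count of 7 became 0 without 10 µM bortezomib 7, 2 without its library 8, 1 without its library 9, 4 without control 4, 4 without control 7, 4 without 25 µM bortezomib 4, and 12 without starvation 3 or without fluphenazine 4. The gene fipr-19 lost its call in 14 of the 21 fits that left out 1 library, and fipr-17 in 5 of them. The gene fipr-20 lost its call without 10 µM bortezomib 7 or control 6. Without the 3 libraries that stand apart 12 members were called higher and 0 lower, beside 24.3% of all genes higher and 1114 of 17492 lower. With the length trend removed 2 were called higher and 1 lower, beside 4.38% of all genes higher and 1248 of 17347 lower. Median-of-ratios scaling gave 4 and 1, beside 5.06% and 8.18% of all genes.

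Bortezomib at 25 µM raised members of most clusters. Of the 32 tested, 21 were called higher, 0 lower and 11 not, with a median of 1.85, and 0 were lower at an unadjusted p under 0.05 in limma. Of all genes tested 42.3% were called higher and 11.1% lower. The gene fipr-26 had 62.4, 107 and 165 FPKM with 25 µM bortezomib and 0, 0 and 0.726 FPKM in controls, a difference of 6.44 ± 0.71 (adjusted p = 1.66e-06). The gene fipr-20 had 41.9, 66.3 and 49.8 FPKM with 25 µM bortezomib and 6.98, 0 and 6.85 FPKM in controls (3.73 ± 1.03, adjusted p = 0.00612). The gene fipr-18 had 24.7, 30.9 and 30.7 FPKM with 25 µM bortezomib and 4.40, 4.81 and 0 FPKM in controls (3.23 ± 0.81, adjusted p = 0.00342). No treated library of these 3 genes was as low as any control, as their choice required.

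The pair fip-6 and fipr-26, the fipr-22 to fipr-24 cluster, the fipr-18 to fipr-20 cluster and the fip-7, fipr-27 and fipr-28 cluster passed in full at 25 µM. The groups overlapped in fip-7 and fipr-27. The gene fip-6 had 34.3, 51.9 and 57.3 FPKM with 25 µM bortezomib and 5.48, 3.58 and 6.16 FPKM in controls (2.999 ± 0.75, adjusted p = 0.00313). Of the fipr-4 to fipr-9 cluster 5 genes rose, and fipr-9 was not called (0.96 ± 0.44, adjusted p = 0.0782). The gene fipr-4 had 152, 163 and 292 FPKM with 25 µM bortezomib and 12.4, 6.89 and 126 FPKM in controls (3.03 ± 0.87, adjusted p = 0.0082), and fipr-7 had 196, 216 and 337 FPKM with 25 µM bortezomib and 19.3, 22.3 and 166 FPKM in controls (2.50 ± 0.77, adjusted p = 0.0125). Control 7 came close to the lowest treated library in both genes, while fipr-6 and fipr-8 overlapped. The gene fip-5 had 59.2, 65.7 and 64.0 FPKM with 25 µM bortezomib and 23.2, 15.1 and 33.6 FPKM in controls (1.42 ± 0.32, adjusted p = 0.00142), again without a call of its neighbour fipr-21 (0.01 ± 0.24, adjusted p = 0.988).

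The count of 21 at 25 µM dropped to 13 without 25 µM bortezomib 6 and to 12 without control 6. Without the 3 libraries that stand apart it was 25 higher and 0 lower, beside 50.3% of all genes higher and 3816 of 17492 lower. With the length trend removed 8 were called higher and 3 lower, beside 26.2% of all genes higher and 4348 of 17347 lower. The 8 were fip-6, fipr-26, fipr-22, fipr-23, fipr-29, fipr-18, fipr-4 and fipr-7. The 3 called lower in that fit were fip-2, fipr-1 and fipr-21. The gene fipr-20 lost its call there (2.58 ± 1.06, adjusted p = 0.0512).

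**Figure D3:**
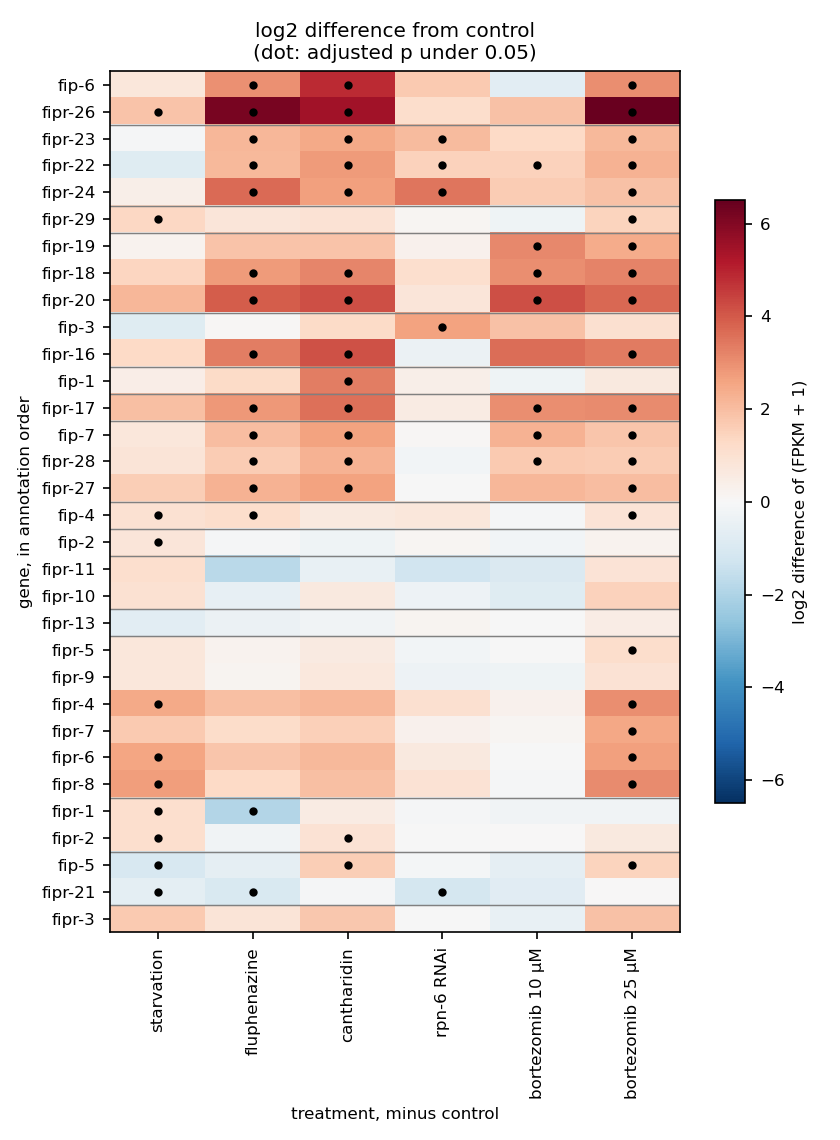
Difference of group means in log2(FPKM + 1) for the 32 tested members (rows, in clusters) in each treatment against control (columns), with a dot where the adjusted p was under 0.05. The fipr-22 to fipr-24 cluster carries dots in all 3 genes in fluphenazine, cantharidin, rpn-6 RNAi and 25 µM bortezomib, and in fipr-22 alone at 10 µM bortezomib.

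Across the 6 comparisons with control, 5 members were called in none: fipr-3, fipr-9, fipr-10, fipr-11 and fipr-13. The gene fipr-22 was called higher in 5 of the 6, all but starvation. The 6 comparisons use the same 3 controls, so a low or high control moves all of them together. The gene fipr-22 had 3.07, 2.38 and 0.753 FPKM in starved worms, 35.7, 9.15 and 25.8 with fluphenazine, 47.0, 23.9 and 31.7 with cantharidin, 16.9, 9.25 and 13.9 with rpn-6 RNAi, 14.95, 14.02 and 10.1 with 10 µM bortezomib, 19.7, 18.4 and 30.4 with 25 µM bortezomib and 2.74, 7.72 and 2.67 in controls. Its starved libraries overlapped the controls, and every other treated library lay above the highest control.

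Away from the contrasts already given, the pair fip-6 and fipr-26 stayed low. In starved worms fip-6 had 11.5, 2.59 and 21.1 FPKM and fipr-26 had 8.85, 1.38 and 2.62 FPKM, and with rpn-6 RNAi fip-6 had 27.4, 12.4 and 18.3 FPKM. With rpn-6 RNAi all 3 fip-6 libraries lay above the highest control, but the difference of 1.70 ± 0.75 was not called (adjusted p = 0.0875). Levels of fipr-24 were 0.271, 1.19 and 2.35 FPKM in starved worms, 10.3, 8.9998 and 8.73 with cantharidin and 6.91, 2.86 and 3.52 with 10 µM bortezomib. Levels of its neighbour fipr-23 were 1.57, 1.23 and 0.672 FPKM in starved worms, 15.4, 3.66 and 12.2 with fluphenazine, 16.0, 7.95 and 11.1 with cantharidin, 4.37, 5.21 and 3.63 with 10 µM bortezomib and 8.12, 6.85 and 11.4 with 25 µM bortezomib. Both genes overlapped the controls in starved worms and exceeded them in every other library. At 10 µM neither passed the test, with differences of 1.67 ± 0.54 for fipr-24 (adjusted p = 0.052) and 1.28 ± 0.42 for fipr-23 (adjusted p = 0.058).

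The other short or low members varied more. Levels of fip-3 were 0, 0 and 0.857 FPKM in starved worms, 3.37, 0 and 1.60 with fluphenazine, 10.5, 9.49 and 0 with cantharidin, 11.6, 5.39 and 4.98 with 10 µM bortezomib and 3.80, 1.61 and 5.81 with 25 µM bortezomib. Its neighbour fipr-16 had 0, 7.28 and 27.9 FPKM in starved worms, 20.5, 23.1 and 32.3 with fluphenazine, 44.6, 77.4 and 24.04 with cantharidin, 43.2, 23.0 and 30.7 with 10 µM bortezomib and 15.8, 0 and 0 in controls. The pair thus differed in rpn-6 RNAi, where fip-3 lay above all controls and fipr-16 was at 0 in 2 of 3 libraries. Levels of fipr-17 were 19.2, 22.3 and 19.7 FPKM in starved worms, 72.7, 15.5 and 46.5 with fluphenazine and 62.6, 119 and 38.1 with cantharidin, all above the controls, and the starved difference of 1.96 ± 0.88 was not called (adjusted p = 0.0673).

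In the cluster of fipr-18 to fipr-20, fipr-18 had 5.64, 12.2 and 5.81 FPKM in starved worms, 46.6, 8.87 and 19.9 with fluphenazine, 34.6, 52.7 and 11.1 with cantharidin, 17.4, 7.396 and 0.890 with rpn-6 RNAi and 28.7, 17.3 and 29.0 with 10 µM bortezomib. Levels of fipr-19 were 6.18, 9.88 and 3.14 FPKM in starved worms, 58.3, 7.07 and 17.4 with fluphenazine, 23.1, 43.4 and 7.18 with cantharidin and 21.1, 27.3 and 46.9 with 25 µM bortezomib, and those of fipr-20 in starved worms were 18.2, 6.42 and 37.0 FPKM. Within fluphenazine and cantharidin the 3 genes were spread widely, and library 2 of the first and library 3 of the second were the highest in each gene. Among the single or abundant members, fipr-29 had 4.71, 7.30 and 13.5 FPKM with fluphenazine, 9.03, 9.77 and 7.95 with cantharidin, 4.74, 6.06 and 3.44 with rpn-6 RNAi, 2.87, 2.19 and 5.62 with 10 µM bortezomib and 14.1, 13.2 and 12.4 with 25 µM bortezomib. It was called higher at 25 µM bortezomib (1.46 ± 0.37, adjusted p = 0.00396) as in starvation. Levels of fipr-1 were 113, 143 and 96.3 FPKM with cantharidin, 79.4, 79.5 and 71.2 with rpn-6 RNAi, 68.2, 63.2 and 72.1 with 10 µM bortezomib and 63.9, 76.9 and 64.2 with 25 µM bortezomib, none of them called against control.

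The remaining tested members are fip-4, fip-7, fipr-3, fipr-5, fipr-6, fipr-9, fipr-11, fipr-13, fipr-27 and fipr-28. The gene fip-7 had 20.04, 19.8 and 11.6 FPKM with cantharidin and 0, 5.67 and 2.53 FPKM in controls, and fipr-28 had 12.1, 23.6 and 4.04 FPKM with cantharidin and 1.49, 1.73 and 1.17 FPKM in controls. In fipr-28 the 3 rpn-6 RNAi libraries, at 1.59, 1.52 and 0.502 FPKM, were about as low as the controls. The lone gene fipr-13 had 89.4, 93.7 and 6.71 FPKM in starved worms and 61.5, 57.1 and 72.9 FPKM in controls, with starvation 3 far below its 2 partners and a difference of -0.67 ± 0.64 (adjusted p = 0.375). Levels of fip-4 stayed between 0.466 and 3.84 FPKM in all 21 libraries, beside the abundant overlapping gene smk-1.

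Between the doses of bortezomib, members of several clusters differed, the fipr-4 to fipr-9 cluster in full. Against 10 µM, 25 µM bortezomib gave 14 of 32 members called higher, 0 lower and 18 not, with a median of 0.80 beside 0.27 over all genes tested, and 0 were lower at an unadjusted p under 0.05 in limma. Of all genes 27.2% were called higher and 12.4% lower. All 6 genes of fipr-4 to fipr-9 rose at the higher dose, and so did both members of the pairs fip-6 with fipr-26 and fip-5 with fipr-21. The gene fipr-26 had 62.4, 107 and 165 FPKM at 25 µM and 1.77, 5.45 and 4.31 FPKM at 10 µM, a difference of 4.52 ± 0.71 (adjusted p = 1.28e-04). The gene fip-6 had 34.3, 51.9 and 57.3 FPKM at 25 µM and 1.33, 3.71 and 3.54 FPKM at 10 µM (3.70 ± 0.75, adjusted p = 0.00114). The gene fipr-8 had 94.8, 111 and 253 FPKM at 25 µM and 6.98, 18.5 and 26.2 FPKM at 10 µM (3.11 ± 1.03, adjusted p = 0.0263). In none of these named genes did the doses overlap, as their choice required.

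For fipr-17 to fipr-20, called at 10 µM against control, no difference between the doses was detectable. The gene fipr-20 had 41.9, 66.3 and 49.8 FPKM at 25 µM and 98.1, 87.5 and 43.2 FPKM at 10 µM (-0.47 ± 1.03, adjusted p = 0.727), and fipr-17 had 26.97, 50.4 and 65.7 FPKM at 25 µM and 47.5, 40.3 and 42.2 FPKM at 10 µM (0.05 ± 0.88, adjusted p = 0.975). With SEs near 1 on the log2 scale, neither difference could be told from 0 or from a change of several fold. The gene fip-5 rose to 59.2, 65.7 and 64.0 FPKM at 25 µM, against 12.9, 14.7 and 17.5 FPKM at 10 µM (2.002 ± 0.32, adjusted p = 1.39e-04). The count of 14 depended on single libraries: it was 4 without 25 µM bortezomib 6, 6 without its library 4, and 5, 7 and 8 without 10 µM bortezomib 7, 8 and 9, and the call of fipr-8 was lost without 10 µM bortezomib 7 or 8 or without 25 µM bortezomib 4 or 6. Without the 3 libraries that stand apart, none of which is in this contrast, the pooled spread was smaller and 19 were called higher, beside 45.1% of all genes higher. With the length trend removed 9 were called higher, beside 20.8%.

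Both 25 µM bortezomib and rpn-6 RNAi target the proteasome, by drug and by RNAi against a subunit, and the members differed between them. Of the 32 tested, 9 were higher and 1 lower with the drug than with RNAi, and 22 were not called, with a median of 1.64 beside 0.035 over all genes tested. Of all genes 14.1% were called higher and 8.01% lower. The gene fipr-26 had 62.4, 107 and 165 FPKM with 25 µM bortezomib and 4.40, 2.50 and 0 FPKM with rpn-6 RNAi, a difference of 5.29 ± 0.71 (adjusted p = 1.02e-04). The gene fipr-24 ran the other way, with 7.05, 6.28 and 2.95 FPKM with 25 µM bortezomib and 13.7, 15.2 and 23.7 FPKM with rpn-6 RNAi (-1.56 ± 0.54, adjusted p = 0.0484). The gene fipr-16 had 7.95, 61.7 and 32.3 FPKM with 25 µM bortezomib and 0, 6.74 and 0 FPKM with rpn-6 RNAi (3.75 ± 1.21, adjusted p = 0.0375). None of these 3 genes overlapped between the groups, as their choice required.

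Of the neighbours fip-5 and fipr-21, only fip-5 was called at 25 µM bortezomib against control. Both were higher with the drug than with RNAi, by 1.57 ± 0.32 (adjusted p = 0.00292) and 1.17 ± 0.24 (adjusted p = 0.00359). The call of fipr-20 (2.95 ± 1.03, adjusted p = 0.0497) was lost in 15 of the 21 fits that left out 1 library, that of fipr-24 in 16, and that of fipr-16 in 4 (without rpn-6 RNAi 4 or 6, or 25 µM bortezomib 4 or 6). The count of 10 called members was 18 without fluphenazine 4, 4 without rpn-6 RNAi 6, and 6, 4 and 4 without 25 µM bortezomib 3, 4 and 6. It was 21 in a fit of these 2 groups alone. Without the 3 libraries that stand apart 21 were called higher and 1 lower, beside 28.1% of all genes higher and 4250 of 17492 lower. With the length trend removed 6 were called higher and 1 lower, beside 13.2% of all genes higher and 1554 of 17347 lower. The RNAi began at L3 on RNAi plates and the drug at L4, so agent, timing and plate cannot be told apart here.

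The cluster fipr-4 to fipr-9 varied widely between libraries of 1 group. Its summed FPKM was 1003, 601 and 378 in starved worms, 662, 124 and 654 with fluphenazine, 417, 1002 and 288 with cantharidin, 276, 175 and 229 with rpn-6 RNAi, 144, 181 and 220.3 with 10 µM bortezomib, 654, 719.5 and 1283 with 25 µM bortezomib and 106, 108 and 647 in controls. Control 7 held as much as treated libraries, and fluphenazine 4 about as little as controls 4 and 6. The most abundant gene of the cluster, fipr-7, had 244, 167 and 66.9 FPKM in starved worms, 168, 30.5 and 174 with fluphenazine, 113, 251 and 68.8 with cantharidin, 66.9, 39.7 and 50.9 with rpn-6 RNAi, 35.8, 40.6 and 64.5 with 10 µM bortezomib, 196, 216 and 337 with 25 µM bortezomib and 19.3, 22.3 and 166 in controls. The next, fipr-4, had 236, 122 and 74.5 FPKM in starved worms, 172, 26.4 and 165 with fluphenazine, 85.4, 240.0 and 59.7 with cantharidin, 59.2, 36.2 and 51.4 with rpn-6 RNAi, 20.6, 31.6 and 33.2 with 10 µM bortezomib, 152, 163 and 292 with 25 µM bortezomib and 12.4, 6.89 and 126 in controls. In both genes control 7 exceeded every rpn-6 RNAi and every 10 µM bortezomib library.

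The same uneven controls were seen in fipr-8, which had 191, 103 and 66.0 FPKM in starved worms, 78.4, 11.3 and 69.8 with fluphenazine, 51.1, 148 and 35.95 with cantharidin, 37.5, 24.95 and 31.4 with rpn-6 RNAi, 6.98, 18.5 and 26.2 with 10 µM bortezomib, 94.8, 111 and 253 with 25 µM bortezomib and 12.2, 1.94 and 123 in controls. Outside the cluster, the neighbouring pair fipr-10 and fipr-11 and the single gene fipr-3 also had their highest control in control 7. Of these, fipr-10 had 276, 148 and 104.4 FPKM in starved worms, 100.3, 16.7 and 98.4 with fluphenazine, 123, 249.5 and 64.3 with cantharidin, 80.7, 41.8 and 76.2 with rpn-6 RNAi, 39.3, 55.8 and 48.8 with 10 µM bortezomib, 174, 233 and 308 with 25 µM bortezomib and 43.4, 41.0 and 299.5 in controls.

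Without control 7, fluphenazine 4 and starvation 3, all 6 genes of the cluster were called higher in starvation, fluphenazine, cantharidin and 25 µM bortezomib, 4 in rpn-6 RNAi and 1 at 10 µM. The gene fipr-4 then differed from control by 4.05 ± 0.54 in starved worms (adjusted p = 1.57e-05), 3.39 ± 0.49 with cantharidin (adjusted p = 4.5e-05), 2.25 ± 0.49 with rpn-6 RNAi (adjusted p = 0.00144) and 4.24 ± 0.49 with 25 µM bortezomib (adjusted p = 3.6e-06). With all libraries the same differences were 2.45 ± 0.87, 2.18 ± 0.87, 1.04 ± 0.87 and 3.03 ± 0.87. The 3 libraries were chosen with earlier results of these data known, and control 7 is the high control of this cluster, so its removal lowers the control mean of these genes by construction.

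Markers of other tissues are given beside the cluster. All 14 markers of the epidermis (cuticle collagens and other epidermal genes) were in the table and none was at 0 in any library. Their mean log2 level relative to the control mean was 1.63, 0.91 and 3.34 in starved worms, 2.77, 0.61 and 2.99 with fluphenazine, 1.92, 2.46 and 1.08 with cantharidin, 1.21, 1.06 and 1.42 with rpn-6 RNAi, -0.17, 0.08 and 0.14 with 10 µM bortezomib, 1.54, 1.34 and 1.21 with 25 µM bortezomib and -0.29, -0.34 and 0.62 in controls. The high control is control 7 and the low fluphenazine library is number 4, the same libraries as for fipr-4 to fipr-9, while starvation 3 had the highest marker level and the lowest sum of the cluster in its group. At 25 µM bortezomib the order was reversed, library 6 having the highest sum and the lowest marker level, and with rpn-6 RNAi library 4 had the highest sum and library 6 the highest marker level. By the test, 10 of the 14 markers were higher and 1 lower in starvation, 9 and 0 with fluphenazine, 7 and 0 with cantharidin, 1 and 0 with rpn-6 RNAi, 0 and 0 at 10 µM bortezomib and 4 and 0 at 25 µM bortezomib. Over all genes tested 39.1%, 34.4%, 31.9%, 27.9%, 9.61% and 42.3% were called higher in that order, and 18.4%, 9.39%, 5.96%, 8.81%, 3.24% and 11.1% lower. The level of 10 pharynx markers, computed in the same way, was 1.97, 1.30 and 2.04 in starved worms, 1.88, 0.40 and 1.93 with fluphenazine, 1.05, 1.52 and 0.84 with cantharidin, 0.39, 0.06 and 0.39 with rpn-6 RNAi, 0.02, 0.05 and 0.01 with 10 µM bortezomib, 0.66, 0.84 and 1.26 with 25 µM bortezomib and -0.30, -0.28 and 0.58 in controls. The level of 31 sperm markers was 1.12, 1.31 and -2.90 in starved worms, 0.52, -0.02 and 0.25 with fluphenazine, 0.54, 0.78 and -0.06 with cantharidin, 0.30, -0.11 and 0.11 with rpn-6 RNAi, -0.23, -0.06 and -0.12 with 10 µM bortezomib, 0.49, 0.48 and 0.60 with 25 µM bortezomib and -0.59, -0.37 and 0.96 in controls. Both lists had their high control in control 7 too, fluphenazine 4 was the lowest of its group in both, and the pharynx markers followed the order of the cluster within cantharidin and 25 µM bortezomib. Control 7 was also the highest control, and fluphenazine 4 the lowest of its group, for neuron and body wall muscle markers. Oocyte markers went the other way, at 0.25, 0.25 and -0.50 in controls and -1.66, 0.07 and -2.39 with fluphenazine. Intestine markers were at 0.08, 0.09 and -0.17 in controls and -0.28, -0.13 and 0.65 with fluphenazine, with 1 of them at 0 in control 7 and in fluphenazine 2. Of the pharynx markers 1 was at 0 in control 4, and of the sperm markers 1 each in controls 4 and 6. The part of these markers in the members' differences was not tested. In whole-worm RNA, fewer cells of a type and less RNA per cell cannot be told apart.

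Transcript length is also given beside the results. The tested members have exonic lengths of 129 to 776 nucleotides in the annotation, and 8 of all 36 members, fipr-14 to fipr-20 and fip-3, are no longer than 160. The summed FPKM of fipr-18 to fipr-20 was 30.0, 28.5 and 45.9 in starved worms, 243, 43.2 and 94.3 with fluphenazine, 110.0, 215 and 74.7 with cantharidin, 62.5, 34.3 and 0.890 with rpn-6 RNAi, 183, 163 and 107 with 10 µM bortezomib, 87.8, 125 and 127 with 25 µM bortezomib and 22.1, 7.44 and 10.4 in controls. Among protein-coding genes outside the family, 15 of at most 160 nucleotides have a median of at least 5 FPKM over the libraries. They deviated from their own mean over the libraries by medians of 0.52, 0.41 and -0.34 log2 units in starved worms, -0.11, 0.08 and 0.21 with fluphenazine, 0.80, 0.71 and 0.05 with cantharidin, 0.39, -0.26 and -0.01 with rpn-6 RNAi, 0.67, 0.48 and 0.48 with 10 µM bortezomib, 0.28, 0.95 and 0.95 with 25 µM bortezomib and -1.11, -0.95 and -0.33 in controls, lowest in controls 4 and 6. A wider class, the 40 such genes that passed the filter for the test and set the length trend at this length, deviated by medians of 0.37, 0.10 and -0.35 in starved worms, -0.50, -0.40 and 0.30 with fluphenazine, 0.14, 0.44 and -0.09 with cantharidin, -0.18, -0.14 and -0.01 with rpn-6 RNAi, -0.05, 0.06 and -0.21 with 10 µM bortezomib, -0.01, 0.61 and 0.48 with 25 µM bortezomib and -0.87, -0.83 and -0.67 in controls. At 10 µM bortezomib the wider class lay near 0 where the 15 lay above it, while in both the medians of controls 4 and 6 were the lowest of all libraries. All 3 control sums of fipr-18 to fipr-20 lie below those of every treated library but rpn-6 RNAi 6. The part of transcript length in these results was not tested beyond the fit without the length trend given for each comparison. That fit also removed library-wide shifts, its median over all genes at 25 µM bortezomib being -0.006 against 0.40 as deposited. Length and shift therefore cannot be told apart in it. Among the 3725 genes tested with exonic lengths in the members' range, the percentages called higher were 35.3% in starvation, 32% with fluphenazine, 29.8% with cantharidin, 25.7% with rpn-6 RNAi, 9.56% at 10 µM bortezomib and 43.9% at 25 µM.

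**Figure D4:**
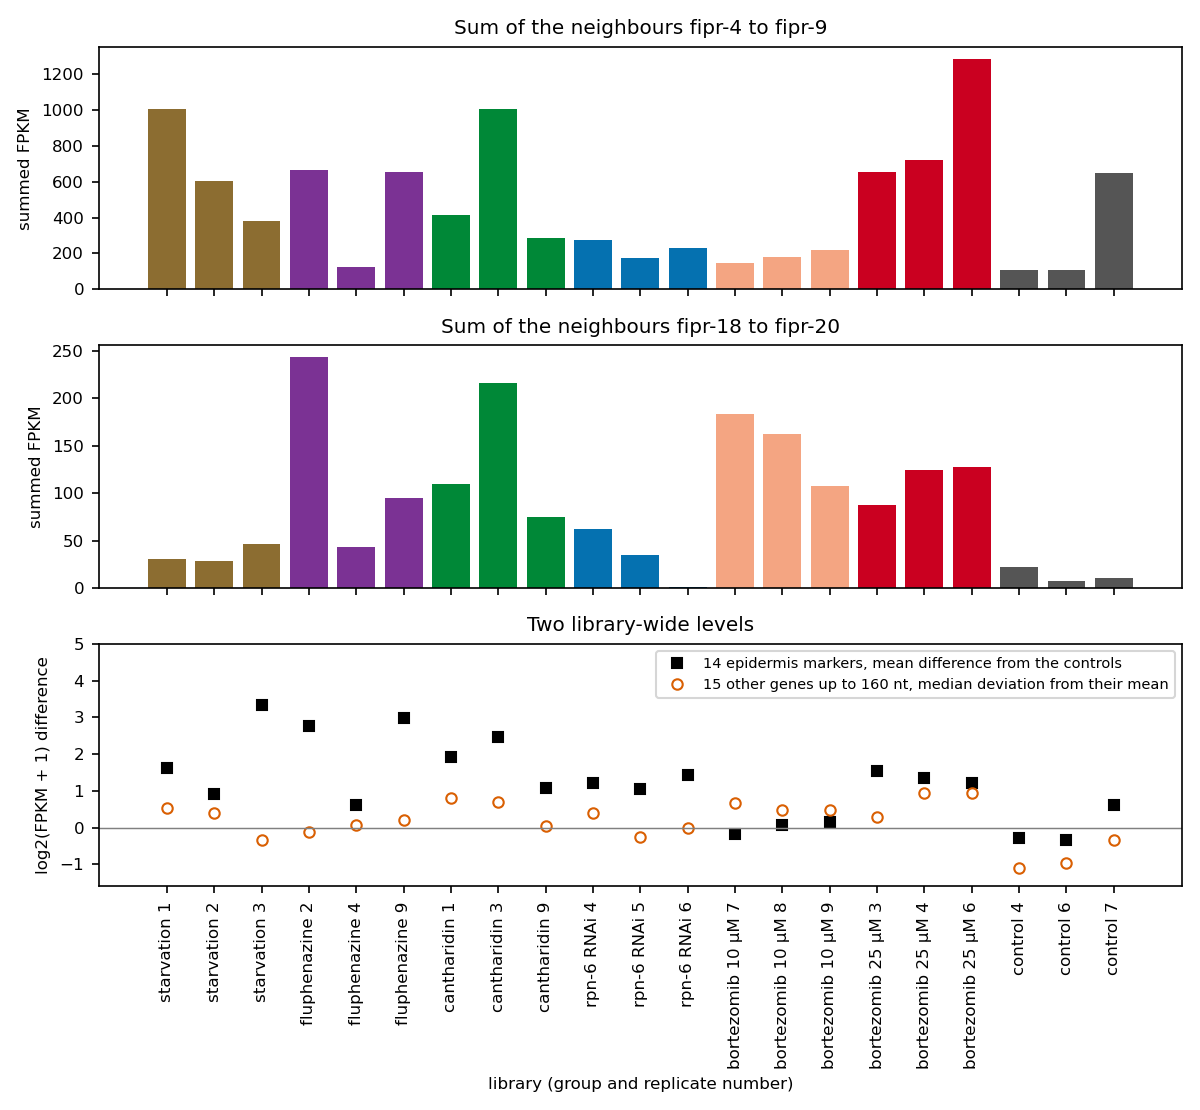
Summed FPKM of fipr-4 to fipr-9 and of fipr-18 to fipr-20 in each library (bars from 0), with the mean log2 level of 14 epidermis markers relative to the control mean and the median log2 deviation of 15 other genes of at most 160 nucleotides below. Control 7 (647 FPKM) stands far above controls 4 and 6 (106 and 108 FPKM) for the larger cluster, and its marker level is 0.62 against -0.29 and -0.34.

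Other genes of the epidermal antifungal response were listed for comparison. Of 22 cnc and nlp peptide genes, 21 were tested, and the counts called higher and lower were 9 and 1 in starvation, 13 and 2 with fluphenazine, 17 and 0 with cantharidin, 7 and 1 with rpn-6 RNAi, 0 and 2 at 10 µM bortezomib and 13 and 0 at 25 µM bortezomib. Their median differences were 0.24, 1.77, 2.61, 0.72, 0.01 and 1.59 in the same order, and the one for 10 µM bortezomib became -0.17 under median-of-ratios scaling. Of all genes tested, 39.1%, 34.4%, 31.9%, 27.9%, 9.61% and 42.3% were called higher in that order, and 18.4%, 9.39%, 5.96%, 8.81%, 3.24% and 11.1% lower. In starvation and rpn-6 RNAi the peptide genes called higher lay near that share. The gene nlp-34, a peptide gene of the nlp-29 cluster, averaged 1043 ± 252 FPKM with cantharidin and 17.0 ± 12.9 FPKM in controls (SD, n = 3 each; difference 6.05 ± 0.47, adjusted p = 1.19e-07 in limma). The gene cnc-4, a caenacin gene, averaged 226 ± 90.8 FPKM with 25 µM bortezomib and 8.43 ± 3.38 FPKM in controls (SD, n = 3 each; difference 4.57 ± 0.37, adjusted p = 5.03e-08 in limma). The gene cnc-11, listed at 0 in all 3 controls, is given no fold.

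Of 16 genes of the p38 branch, the counts higher and lower were 15 and 0 in starvation, 14 and 0 with fluphenazine, 13 and 0 with cantharidin, 11 and 1 with rpn-6 RNAi, 3 and 1 at 10 µM and 15 and 1 at 25 µM bortezomib. Median-of-ratios scaling changed these to 10 and 0, 7 and 1, 10 and 1, 6 and 1, 3 and 3, and 10 and 1. Their median differences were 0.74, 0.69, 0.88, 0.68, 0.19 and 0.90, and the one at 10 µM became -0.06 under that scaling. Under it 5088, 4051, 3404, 2774, 885 and 5065 of all 17492 genes were called higher in that order, and 5001, 4691, 3372, 2593, 1430 and 4459 lower. As deposited, the shares of all genes are those given for the peptide genes. The gene cebp-1, a C/EBP-type transcription factor gene, averaged 169.6 ± 9.34 FPKM with rpn-6 RNAi and 13.004 ± 3.42 FPKM in controls (SD, n = 3 each; difference 3.64 ± 0.19, adjusted p = 1.97e-10 in limma). The gene sta-2, whose STAT-like product acts at the end of the branch, averaged 26.1 ± 0.847 FPKM with cantharidin and 5.596 ± 0.524 FPKM in controls (SD, n = 3 each; difference 2.04 ± 0.19, adjusted p = 7.19e-07 in limma). Starved worms had 15 of these genes called higher and 9 of the 32 members, and 10 µM bortezomib had 3 and 7. No test of a relation between the lists was made.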

How the data were processed

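The FPKM values were deposited by the authors as a single table of 21 library columns. Per the submitters' processing notes CASAVA and Cufflinks were used, with no version named. The aligner, genome build and filters are not given in the sources used here. For that reason positions are left out. In bortezomib titles the first digit was taken as the replicate and the rest as the dose. IDs were joined to symbols by WormBase ID (43200 of 46254 named). Annotation release 115 served for exonic lengths (17347 of 17492 genes tested) and for which members are neighbours, not for positions, and no sequences are shown.

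Genes at 1 FPKM or more in at least 3 libraries (17492) were fitted as log2(FPKM + 1) with limma 3.58.1 (R 4.3.3; lmFit, then eBayes with trend), 1 mean per group over all 21 libraries, with 14 residual degrees of freedom. Tests were two-sided and adjusted by Benjamini-Hochberg over all genes tested. The values are not counts, so no count model was used. The fit was tested on simulated data. Read totals are unknown, and only relative depth could be read from the steps of low values.

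Members and lists were chosen with earlier results of these data known. Members with full values are the 6 with the highest mean and, per comparison and direction, the 3 called ones with the largest difference whose groups do not overlap and where 1 group averages at least 5 FPKM. From each list up to 3 called genes were eligible. The fit was repeated with median-of-ratios scaling, with a pseudocount of 0.1, with no filter or one at 5 FPKM, with zeros as missing where the median exceeds 20 FPKM, on the 2 groups alone, with a replicate block, without each library in turn, without the 3 libraries that stand apart, and, chosen after seeing the data, with the trend on transcript length removed.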

Additional observations from a re-analysis of the deposited data

How the results depend on the processing

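The 29 named results of single genes were picked as called, with groups that do not overlap. Leaving out libraries or changing the pseudocount or filter could therefore not reverse them, and their direction in those runs is no support. They kept their direction under every alternative run, and 19 of them kept their call in all fits that left out 1 library. Of the 29, calls were lost by 8 with the length trend removed, 8 in a fit of the 2 groups, 6 with a pseudocount of 0.1, 3 under median-of-ratios scaling, 3 with no filter, 2 without the 3 libraries that stand apart and 2 with zeros as missing. With the replicate block 5 of the 11 in the comparisons reported for it lost their call. Counts of called members moved more. In starvation (11 called) the count was 7 under median-of-ratios scaling, 2 in a fit of the 2 groups, 18 without the 3 libraries that stand apart, 4 with the length trend removed, and 3 to 16 over the fits that left out 1 library. In fluphenazine (15) it was 5 in a fit of the 2 groups, 24 without the 3 libraries, and 11 to 21 with 1 library left out. In cantharidin (15) it was 25 without the 3 libraries and 12 to 20 with 1 left out. In rpn-6 RNAi (5) it was 11 without the 3 libraries, 3 with the length trend removed, and 4 to 6 with 1 left out. At 10 µM bortezomib (7) it was 4 with no filter, 12 without the 3 libraries, 3 with the length trend removed, and 0 to 12 with 1 left out. At 25 µM (21) it was 11 with the length trend removed and 12 to 24 with 1 left out. Between the doses (14) it was 9 with the length trend removed and 4 to 17 with 1 left out. For 25 µM bortezomib against rpn-6 RNAi (10) it was 6 with a pseudocount of 0.1, 21 in a fit of the 2 groups, 22 without the 3 libraries, and 4 to 18 with 1 left out. Fewer samples or less pooled spread change the precision of these fits by construction, and the cause of the other moves was not tested.

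Over all genes, leaving out the 3 libraries gave 13249 calls in fluphenazine (7658 with all libraries), 11411 in cantharidin (6628), 10082 in rpn-6 RNAi (6425), 5360 at 10 µM bortezomib (2248), 11937 between the doses (6932) and 9171 for the drug against RNAi (3861). A fit of the 2 groups gave 5398 in starvation (10066 with all groups), 2567 in fluphenazine, 12085 between the doses and 8403 for the drug against RNAi.

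The replicate block was fitted over all libraries and is reported for the 3 comparisons whose groups share at least 2 title numbers. Same-numbered libraries did not deviate together (correlations of deviations from -0.263 to 0.054), so the numbers are not taken to pair samples. Under the replicate block 9 members were called at 25 µM bortezomib, 4 in rpn-6 RNAi and 1 for 25 µM bortezomib against rpn-6 RNAi, and over all genes 4016 in rpn-6 RNAi and 448 for 25 µM bortezomib against rpn-6 RNAi. Unknown depth limits every member near 0, where 1 fragment can move a value by several FPKM in the shortest genes.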

Other observations

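The TGF-beta branch of the epidermal response, 6 genes from the ligand DBL-1 to its SMAD proteins, had 6 genes called higher in starvation, 5 each in fluphenazine, cantharidin, rpn-6 RNAi and 25 µM bortezomib, 1 at 10 µM bortezomib and none lower in any of these 6 comparisons with control in limma. Median-of-ratios scaling made those counts 5, 4, 5, 2, 5 and 1 in the order starvation, fluphenazine, cantharidin, rpn-6 RNAi, 25 µM and 10 µM bortezomib. Of all 17492 genes, 5088, 4051, 3404, 2774, 5065 and 885 were called higher under it in that order. As deposited, 39.1%, 34.4%, 31.9%, 27.9%, 42.3% and 9.61% of all genes were higher and 18.4%, 9.39%, 5.96%, 8.81%, 11.1% and 3.24% lower. These shares also stand beside the osmotic counts that follow. Of the 4 osmotic response genes, which mark another epidermal stress, the counts called higher and lower were 0 and 1 in starvation, 2 and 0 with fluphenazine, 1 and 0 with cantharidin, 1 and 1 with rpn-6 RNAi, 0 and 0 at 10 µM bortezomib (0 higher and 1 lower at an unadjusted p under 0.05) and 1 and 1 at 25 µM bortezomib in limma. The gene gpdh-2, a glycerol-3-phosphate dehydrogenase gene, was higher with fluphenazine, cantharidin, rpn-6 RNAi and 25 µM bortezomib, by at most 0.43 on the log2 scale, and none of these 4 calls held under median-of-ratios scaling. The gene gpdh-1, another glycerol-3-phosphate dehydrogenase gene, was lower with rpn-6 RNAi by 2.04 on that scale, hmit-1.2, a myo-inositol transporter gene, was lower in starvation (-1.55) and at 25 µM bortezomib (-1.08), and its neighbour in name hmit-1.1 was higher with fluphenazine (1.54).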
